A study of Mus musculus with 8 samples.

Results

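Herpud1 and 9 further genes of the unfolded protein response (Hspa5, Hsp90b1, Xbp1, Atf4, Ddit3, Atf6, Ern1, Dnajb9 and Sdf2l1) were followed in 8 RNA-seq libraries of mouse cardiac macrophages. They are 10 of the 24516 genes in the deposited count table and were taken by symbol. Herpud1 was picked because a paired comparison of these same libraries had called it, so its difference between the groups is given as a description and supports nothing further. The other 9 were picked by name, as known genes of the same pathway, with earlier results of these data known. The libraries comprise 4 of endocardially derived cardiac tissue macrophages (EcTM) and 4 of cardiac macrophages without that origin (non-EcTM). The hearts of all 8 were of C57BL/6 background, postnatal day 28 and the genotype Nfatc1Cre/+; Rosa26Tomato reporter/+, and the cells were sorted by flow cytometry. In both groups Cre is driven from 1 allele of Nfatc1, which in the heart is active in the endocardium. The reporter marks cells with a history of Cre activity, so the separation of the groups rests on where and when this Cre was active. The EcTM libraries are E591, E592, E604 and E606 and the non-EcTM libraries N591, N592, N604 and N606, and the shared number gives 4 pairs. What the number stands for (one animal, one litter or one sorting day) and whether animals were pooled is not said in the labels, and p-values measure only the spread between these libraries.

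The unfolded protein response is the programme by which a cell adjusts the endoplasmic reticulum (ER) to its load of newly made secreted and membrane proteins. Its sensors in the ER membrane are IRE1 (encoded by Ern1), ATF6 and PERK (encoded by Eif2ak3). IRE1 splices the Xbp1 messenger RNA to give an active transcription factor, ATF6 is cut to release another, and PERK slows translation while favouring that of ATF4, which in turn induces the factor CHOP (encoded by Ddit3). Their targets include ER chaperones such as BiP (encoded by Hspa5) and genes of ER-associated degradation such as Herpud1, a membrane protein that helps assemble the complex passing misfolded proteins to the proteasome. Macrophages carry a large secretory and lysosomal load and use this programme in inflammatory activation as well.

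Many of these targets carry an ER stress response element in the promoter, and 3 sequences are shown because they hold this element in the gene the data turn on and in 2 chaperone genes measured beside it. Each is the 250 bases before the annotated start, 5′ to 3′ on the strand of the gene, from the RefSeq annotation of GRCm38.p6. Capitals mark the ER stress response element (ERSE), which is CCAAT, then any 9 bases, then CCACG, or its second form (ERSE-II), which is ATTGG, then any 1 base, then CCACG. Both strands were searched.
Herpud1, chr8:94386179-94386428, plus strand: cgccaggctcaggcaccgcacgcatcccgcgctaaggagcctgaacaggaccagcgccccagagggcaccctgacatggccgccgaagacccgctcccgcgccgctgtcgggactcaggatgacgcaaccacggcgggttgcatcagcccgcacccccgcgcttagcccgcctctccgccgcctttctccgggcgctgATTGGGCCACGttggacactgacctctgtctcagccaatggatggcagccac
Hspa5, chr2:34771840-34772089, plus strand: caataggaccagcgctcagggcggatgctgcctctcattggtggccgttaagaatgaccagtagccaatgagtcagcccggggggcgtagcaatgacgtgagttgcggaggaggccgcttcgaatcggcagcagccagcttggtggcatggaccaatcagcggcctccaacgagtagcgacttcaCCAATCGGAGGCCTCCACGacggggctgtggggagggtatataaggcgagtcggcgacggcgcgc
Hsp90b1, chr10:86705445-86705694, minus strand: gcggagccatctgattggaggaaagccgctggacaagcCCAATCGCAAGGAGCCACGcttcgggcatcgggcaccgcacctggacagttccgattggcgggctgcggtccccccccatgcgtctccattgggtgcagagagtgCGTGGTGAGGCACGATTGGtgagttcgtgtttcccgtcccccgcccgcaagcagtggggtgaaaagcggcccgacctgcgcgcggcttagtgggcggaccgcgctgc
The Herpud1 window held the ERSE-II form, beginning 52 bases before the start. Its end reads CCAAT, then 9 bases, then CCAC, which lacks only the last letter of an ERSE. Bases beyond the window were not searched, so whether an ERSE crosses its edge was not tested. The Hspa5 window held 1 ERSE, beginning 65 bases before the start, and the Hsp90b1 window held 2, beginning at 212 and 107 bases, the latter on the opposite strand. Promoter windows were matched for 9 of the 10 genes, all but Atf6, and the windows of Xbp1, Atf4, Ddit3, Ern1, Dnajb9 and Sdf2l1 held neither form. Of 32851 windows of the same length in the table, 37 (0.113%) held the ERSE and 10 (0.0304%) the ERSE-II form. A match of letters is not evidence of binding, and the absence of a match says only that these letters are not in this window. The start of Herpud1 in the deposited table lies 71 bases downstream of the RefSeq gene start that ends this window, whereas the deposited starts of the other 9 genes equal those of RefSeq.

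Total counts ran from 2152425 to 2937464 per library, and 3 counts corresponded to 0.990 to 1.43 CPM (counts divided by TMM-scaled library totals, per-million scale). Counts depended strongly on how many curated RefSeq transcripts a gene has. In 119 genes on 5 unfolded protein response lists, counts summed over the 8 libraries had a median of 1666 where the gene had 1 curated transcript (66 genes), 152 where it had 2 (30 genes) and 10 where it had 3 or more (23 genes). None of the 66 genes with 1 transcript was at 0 in all libraries, against 4 of 30 and 9 of 23 of the others. Hsp90b1, Atf6, Ern1, Dnajb9 and Sdf2l1 have 1 curated transcript, and Herpud1, Hspa5, Xbp1, Atf4 and Ddit3 have 2. For Herpud1, whose deposited start differs from that of RefSeq, the number of transcripts in the annotation used for counting may be another, and its group here is that of RefSeq only. Counts are therefore not compared between genes here. A low count of Hspa5, Xbp1, Atf4 or Ddit3 cannot be read as a low level, and whether the same property touches their difference between groups was not tested. Of the 10 genes 7 passed the filter on low counts, and Hspa5, Xbp1 and Ddit3 did not.

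**Figure D1:**
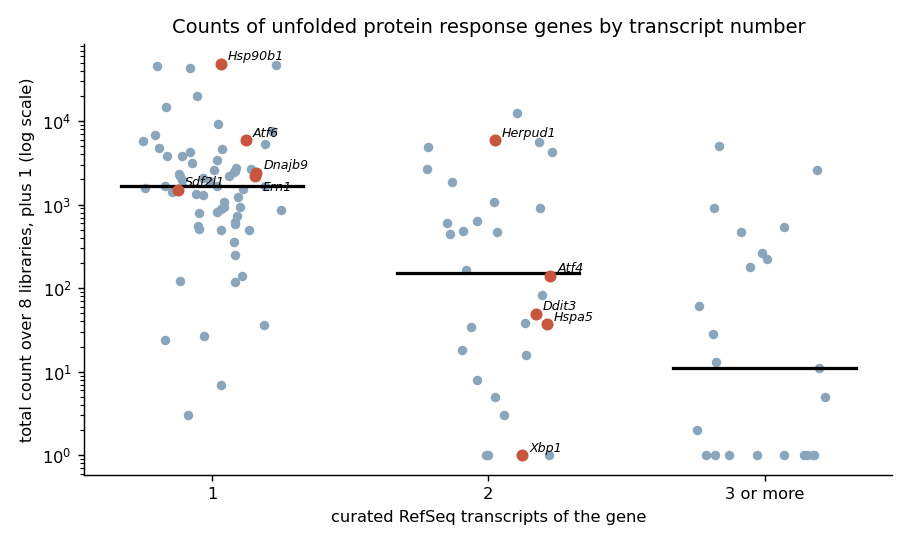
Total count over 8 libraries, plus 1, on a log axis, for 119 unfolded protein response genes grouped by their number of curated RefSeq transcripts; red points are the 10 genes followed here, blue points the other genes of the lists, and black bars the medians (1666, 152 and 10). Herpud1, placed by its RefSeq entries, stands above the median of genes with 2 transcripts, and Hspa5, Ddit3, Atf4 and Xbp1 lie below it.

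Herpud1 (Entrez gene 64209, chromosome 8 from 94386429 to 94395371 of GRCm38) was higher in the EcTM library of every pair. Its level was 346, 396, 271 and 363 CPM in E591, E592, E604 and E606, and the N591, N592, N604 and N606 levels were 264, 292, 218 and 282 CPM. The groups overlapped, because E604 lay below N592 and N606, but E604 and N604 were the lowest of their groups. EcTM averaged 344 ± 52.8 CPM (SD, n = 4) and non-EcTM 264 ± 32.7 CPM. In these bulk samples, fewer expressing cells and less RNA per cell cannot be told apart. The log2 ratio within a pair was 0.39, 0.44, 0.32 and 0.37 in the same order, with a mean of 0.38 and an SD of 0.05. The paired edgeR fit gave a log2 fold change of 0.38 ± 0.10 (SE, 95% interval 0.18 to 0.58), or 1.30-fold. Its adjusted p was 0.413 in edgeR, over 7667 genes. In the paired DESeq2 fit that led to its choice it was 0.0140, over 4325 genes, and the log2 fold change was 0.38 ± 0.09. In DESeq2 the adjusted p was 0.0195 without the pair E604/N604, 0.0713 without E591/N591, 0.276 without E592/N592 and 1 without E606/N606.

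**Figure D2:**
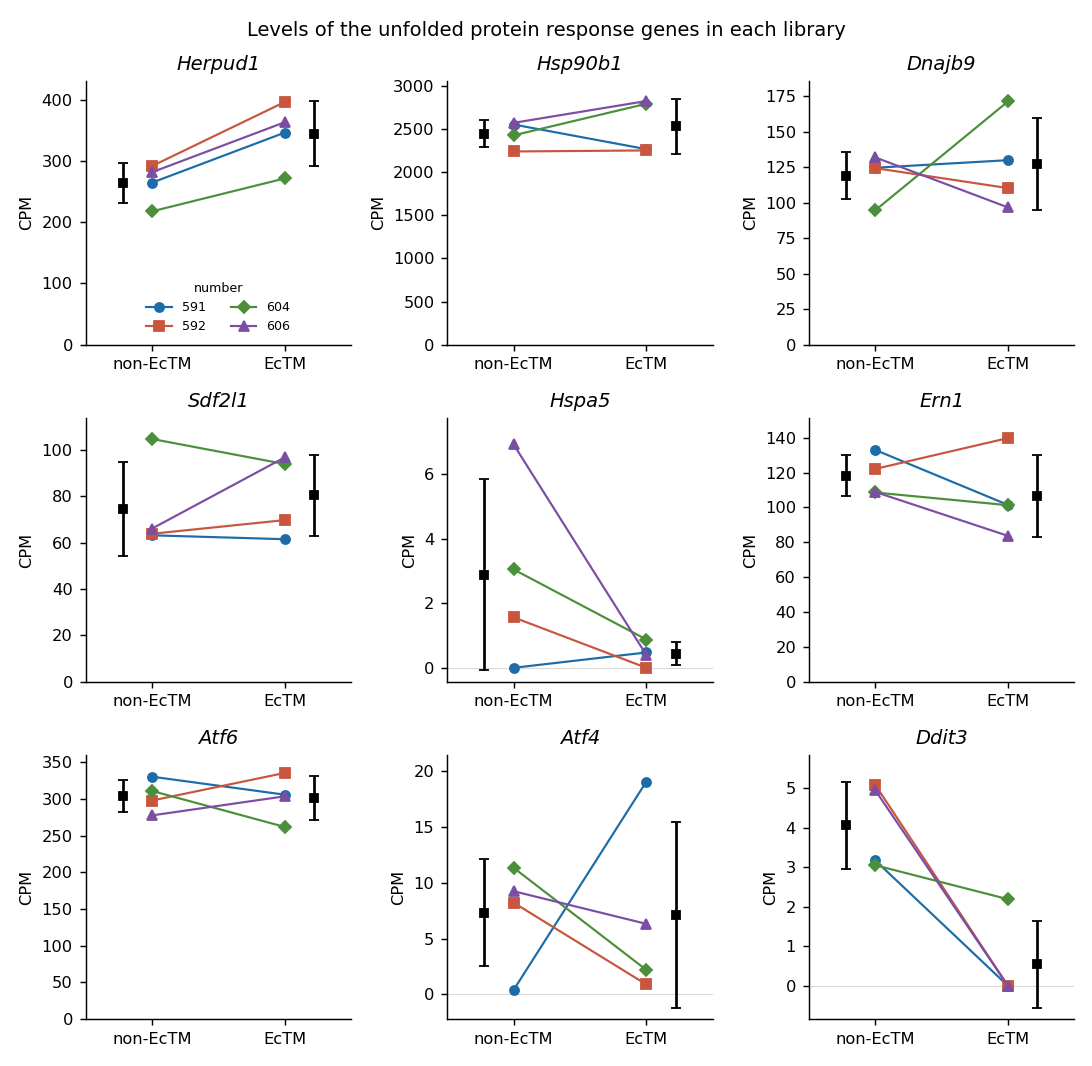
CPM in each library for 9 genes (Xbp1 had no count), where lines join the 2 libraries of a pair and each black square with its bar is a group's mean ± SD (n = 4). The 4 lines of Herpud1 all run upward from non-EcTM to EcTM, and those of the other genes do not all do so.

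Hsp90b1, Dnajb9 and Sdf2l1, the chaperone and co-chaperone genes among the 10 that could be tested, were not higher in EcTM in every pair. Hsp90b1 encodes GRP94, the HSP90 chaperone of the ER that folds Toll-like receptors and integrins (Entrez gene 22027, chromosome 10 from 86690841 to 86705444). It stood at 2268, 2253, 2795 and 2826 CPM in E591, E592, E604 and E606 and at 2554, 2241, 2428 and 2573 CPM in N591, N592, N604 and N606. E591 lay below N591, E604 and E606 lay above their partners, and E592 was nearly level with N592. The log2 fold change was 0.04 ± 0.06 with an edgeR adjusted p of 0.976, and its 95% interval ran from -0.08 to 0.17.

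Dnajb9 encodes ERdj4, a BiP co-chaperone that is a target of spliced XBP1 (Entrez gene 27362, chromosome 12 from 44205897 to 44210068). Its levels were 130, 110, 171 and 96.7 CPM in the EcTM libraries and 125, 124, 94.6 and 132 CPM in the non-EcTM libraries in the same order. E604/N604 had a log2 ratio of 0.86 and E606/N606 had -0.45, so that its pairs went opposite ways. The log2 fold change was 0.07 ± 0.18, with a 95% interval of -0.29 to 0.44 and an edgeR adjusted p of 0.993.

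Sdf2l1 encodes an ER-resident partner of BiP co-chaperones (Entrez gene 64136, chromosome 16 from 17130138 to 17132383). It stood at 61.5, 69.7, 93.9 and 96.7 CPM in the EcTM libraries and at 63.1, 63.8, 105 and 66.0 CPM in the non-EcTM libraries in the same order. E604, N604 and E606 were the high libraries, and the groups overlapped. The log2 fold change was 0.12 ± 0.19, with a 95% interval of -0.27 to 0.52 and an edgeR adjusted p of 0.983.

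Hspa5, the gene of BiP, the main Hsp70 chaperone of the ER and the repressor of all 3 sensors at rest, was almost uncounted (Entrez gene 14828, chromosome 2 from 34772090 to 34776529). It had 1, 0, 2 and 1 counts in E591, E592, E604 and E606, and 0, 4, 7 and 21 in N591, N592, N604 and N606. Of its 36 counts 4 fell in EcTM, a share of 11.1% (exact 95% interval 3.11 to 26.1%, covering counting error only), where EcTM holds 47.4% of all counts. N606 held 21 of the counts, both groups had libraries at 0, and the annotated span of Rabepk overlaps the gene. The paired DESeq2 fit gave an unadjusted p of 0.150 and no adjusted p.

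Among the sensors, Ern1 (Entrez gene 78943, chromosome 11 from 106397620 to 106487796) stood at 101, 140, 101 and 83.7 CPM in E591, E592, E604 and E606 and at 133, 122, 109 and 109 CPM in N591, N592, N604 and N606. EcTM was lower in 3 of 4 pairs and higher in E592. The log2 fold change was -0.17 ± 0.16, with a 95% interval of -0.50 to 0.16 and an edgeR adjusted p of 0.964. Atf6 (Entrez gene 226641, chromosome 1 from 170704457 to 170868585) had 306, 336, 262 and 304 CPM in the EcTM libraries and 330, 298, 311 and 278 CPM in the non-EcTM libraries. Its pairs were split evenly, with EcTM higher in E592 and E606. The log2 fold change was -0.01 ± 0.10, with a 95% interval of -0.23 to 0.20 and an edgeR adjusted p of 0.998. The span of Atf6 also contains 4 other annotated genes, Gm23523, Gm25235, Gm29733 and Gm9929.

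Of the 3 transcription factor genes below the sensors, only Atf4 passed the filter on low counts. Xbp1 (Entrez gene 22433, chromosome 11 from 5520641 to 5525993) had 0 counts in 8 of 8 libraries. So did other genes of the pathway with several transcripts such as Canx, the lectin chaperone calnexin. By counting error alone, 0 counts allow up to 3 counts (0.990 to 1.43 CPM) in each library. That bound holds for reads that were counted and not for the level of the gene. Gene counts would not show the splicing of Xbp1 in any case. Atf4 (Entrez gene 11911, chromosome 15 from 80255184 to 80257545) had 40, 2, 5 and 16 counts in E591, E592, E604 and E606 and 1, 21, 26 and 28 in N591, N592, N604 and N606. Pair E591/N591 went one way by a log2 ratio of 5.58 and the other 3 pairs the opposite way. The log2 fold change was -0.66 ± 1.09, with a 95% interval of -2.90 to 1.58 and an edgeR adjusted p of 0.986.

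Ddit3, the gene of the pro-apoptotic factor CHOP (Entrez gene 13198, chromosome 10 from 127290793 to 127296291), had 0, 0, 5 and 0 counts in E591, E592, E604 and E606 and 8, 13, 7 and 15 in N591, N592, N604 and N606. All 4 EcTM libraries lay below the 4 non-EcTM libraries. Among the 14319 genes with a count, 186 (1.30%) had groups apart in this direction. Of the 48 counts 5 fell in EcTM, or 10.4% (exact 95% interval 3.47 to 22.7%, counting error only), against 47.4% of all counts. The gene lay below the filter and was not tested in edgeR. The paired DESeq2 fit gave an unadjusted p of 0.00413 and no adjusted p. Its annotated span overlaps Mbd6 and Mars1, and with 2 curated transcripts the few counts left may not stand for the whole gene.

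Set side by side, Herpud1 was the 1 gene of the 7 tested that stood higher in EcTM in 4 of 4 pairs, a pattern seen in 555 of 7667 genes (7.24%). In the paired edgeR fit 0 of the 7 passed an adjusted p of 0.05, where 1 of 7667 genes (0.0130%) did, and Herpud1 alone had an unadjusted p under 0.05, where 5.40% of genes did. Paired DESeq2 called Herpud1 and none of the 5 other members to which it gave an adjusted p, with 17 of 4325 genes (0.393%) called, and paired limma-voom called 0 of 7, where 0.248% of genes passed. None of the 7 had groups that did not overlap, where 2.70% of tested genes did. The median log2 fold change of the 7 was 0.04, beside -0.01 for all tested genes. Among the 7, the spread of the pair ratios was smallest in Herpud1 (SD 0.05) and lay between 0.16 in Hsp90b1 and 0.56 in Dnajb9 for the 5 genes with 1 curated transcript. Because Herpud1 was chosen from this contrast, no test of its distance from the others was made. A paired call favours genes with a small spread between pairs, so its spread and its 4 of 4 pairs are descriptions only.

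**Figure D3:**
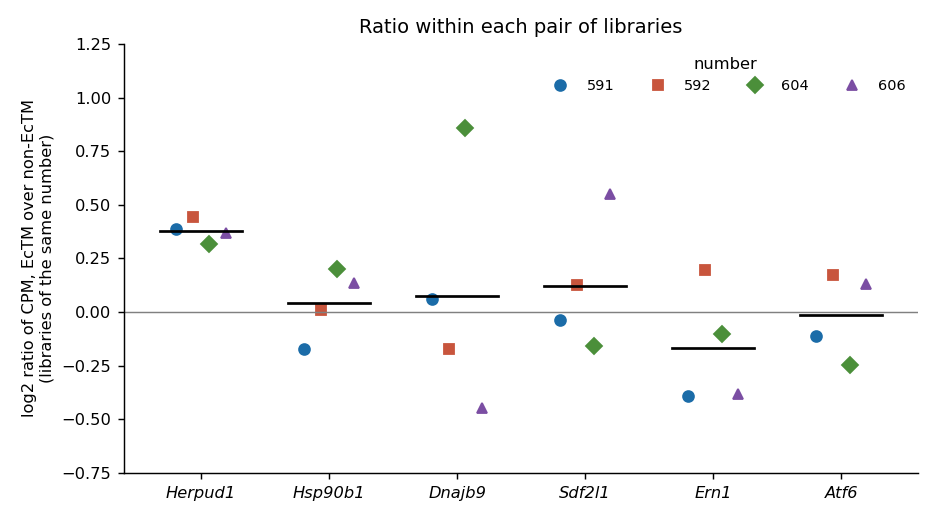
Log2 ratio of CPM, EcTM over non-EcTM, within each pair of libraries for the 6 best counted genes, with black bars at the mean of 4 pairs. The ratios of Herpud1 lie between 0.32 and 0.44, and those of the other 5 genes lie on both sides of 0.

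The wider pathway was read from 5 lists, of ER chaperones and folding enzymes, ER-associated degradation, sensors and transcription factors, targets of PERK and ATF4, and ER translocation and vesicle transport. Of their 119 genes 86 were tested. In the paired edgeR fit 0 of the 86 passed, and 4 (4.65%) had an unadjusted p under 0.05, beside 5.40% of all tested genes. These 4 were Herpud1 toward EcTM and Erlec1, Nupr1 and Srpr toward non-EcTM. Paired DESeq2 called Herpud1 alone among 71 with an adjusted p, and paired limma-voom called 0.

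Of 24 listed genes of ER-associated degradation 16 were tested, with a median log2 fold change of 0.06 and 9 of 16 above 0. Erlec1, a lectin that brings misfolded glycoproteins to the degradation complex, stood at 9.53, 23.2, 14.5 and 31.2 CPM in E591, E592, E604 and E606 and at 41.3, 44.6, 44.5 and 27.7 CPM in N591, N592, N604 and N606. EcTM was the lower library in all pairs but E606/N606. Its log2 fold change was -1.09 ± 0.35 with an edgeR adjusted p of 0.697. Herpud2, the paralogue of Herpud1, had a log2 fold change of -0.13 ± 0.17 and is named here after its value was seen. The other genes with the smallest p were Ubxn4 (0.17 ± 0.12), Vimp (-0.32 ± 0.24) and Ube2g2 (0.32 ± 0.24), the last a ubiquitin-conjugating enzyme that works in this step. In this list 2 genes, Herpud1 and Ube2g2, stood higher in EcTM in 4 of 4 pairs, and 1, Vimp, stood lower.

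Of 25 chaperone and folding genes 21 were tested, with a median log2 fold change of 0.04 and 14 of 21 above 0. None of the 21 had an unadjusted p under 0.05 in edgeR. The smallest p belonged to the disulphide isomerase family genes Txndc5 (0.60 ± 0.33) and Txndc11 (0.38 ± 0.29), the secreted ER protein gene Manf (-0.19 ± 0.16) and the oxidase gene Ero1lb (0.39 ± 0.35). Txndc5, Txndc11 and Dnajc3 stood higher in EcTM in 4 of 4 pairs. Dnajc3, a BiP co-chaperone gene named here after its values were seen, had a log2 fold change of 0.07 ± 0.11 and an SD of 0.03 between its pair ratios. The groups of Txndc11 did not overlap, as in 1.29% of tested genes in this direction. The ERSE was present in the promoters of 10 of 93 pathway genes with a window, and its 7 tested carriers had a median log2 fold change of 0.07. They ran from -0.11 in Pdia6 to 0.39 in Ero1lb, with 6 of 7 above 0 and 1 below, and 0 of 7 passed in edgeR. These lists hold genes known for this element, so its frequency among them is not an independent result. The ERSE-II form was present in 1 of the 93, Herpud1. Among all genes, its 4 tested carriers, Herpud1 included, had a median log2 fold change of -0.25.

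Of 17 sensor and transcription factor genes 11 were tested, with a median of -0.01. Eif2ak3, the gene of PERK, averaged 83.7 ± 11.8 CPM (SD, n = 4) over EcTM libraries and 105 ± 13.7 CPM over non-EcTM ones. Its log2 fold change was -0.33 ± 0.17 with an edgeR adjusted p of 0.931. Atf6b, the paralogue of Atf6, had -0.22 ± 0.16, the ER-anchored factor gene Creb3l1 -1.45 ± 0.90 and Nfe2l1 0.68 ± 0.51.

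Of 28 targets of PERK and ATF4 14 were tested, with a median of 0.06. Nupr1, a stress-induced chromatin protein gene, was lower in EcTM in 4 of 4 pairs, at 30.0, 62.6, 27.2 and 26.5 CPM in E591, E592, E604 and E606 and at 58.8, 67.7, 42.7 and 42.2 CPM in N591, N592, N604 and N606. Its log2 fold change was -0.59 ± 0.25 with an edgeR adjusted p of 0.897. Ppp1r15a (GADD34), the phosphatase subunit that ends the translational block by PERK, stood at 2462 ± 114 CPM over EcTM and 2298 ± 203 CPM over non-EcTM libraries, with a log2 fold change of 0.10 ± 0.05. Atf3, which is both a target of ATF4 and an immediate-early gene, had 0.07 ± 0.06 and Cebpg had -0.18 ± 0.12. Trib3, Chac1, Asns, Phgdh and Stc2, known targets of ATF4 or CHOP that each have 1 curated transcript, did not pass the filter on low counts; they are named after their values were seen.

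Of 27 translocation and vesicle genes 24 were tested, with a median of -0.02 and 16 of 24 below 0. Srpr, the signal recognition particle receptor, averaged 55.7 ± 16.0 CPM over EcTM and 78.9 ± 19.1 CPM over non-EcTM libraries and was the lower in 4 of 4 pairs, with a log2 fold change of -0.50 ± 0.22 and an edgeR adjusted p of 0.897. Ssr3 and Spcs2, subunits of the translocon-associated complex and of the signal peptidase, were also lower in 4 of 4 pairs, at -0.19 ± 0.11 and -0.25 ± 0.18, and the cargo receptor gene Lman1 had -0.66 ± 0.40. The list had 4 genes lower and 0 higher in 4 of 4 pairs, where 6.89% and 7.24% of all tested genes were.

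**Figure D4:**
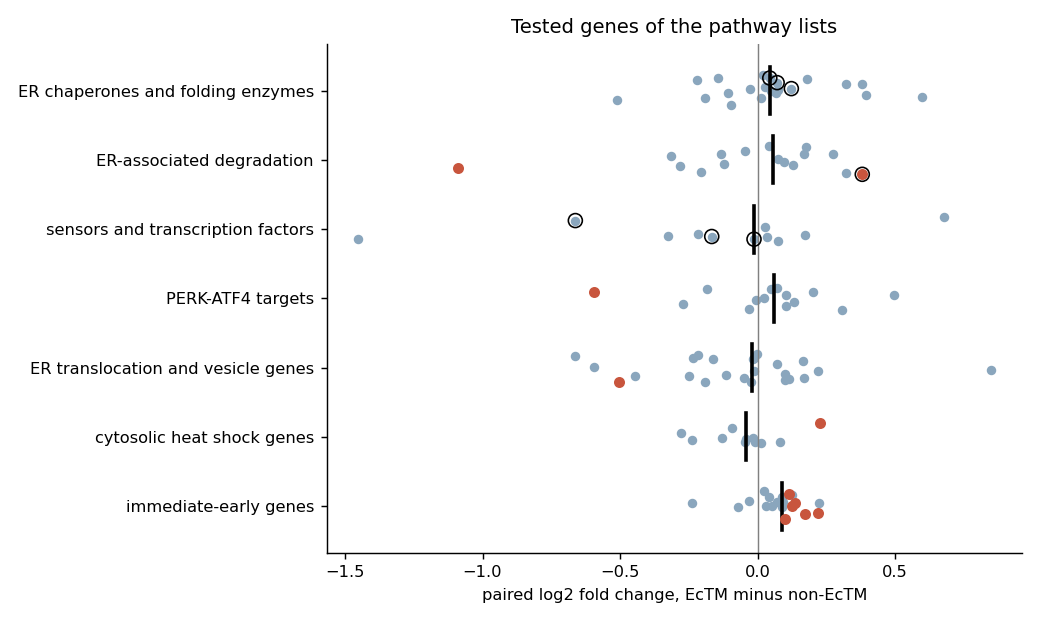
Paired log2 fold changes (EcTM minus non-EcTM) of the tested genes of 7 lists, with black bars at the medians, red points for an unadjusted p under 0.05 in edgeR and black circles around the genes followed here. The list medians lie between -0.04 and 0.09, and Herpud1 is the red circled point at 0.38.

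The differences between numbers were tested in the same paired fit, and the choice of genes did not use them directly. For Herpud1 this test is still not independent of its choice. A paired call favours a small spread between pairs, and the differences between numbers are set against that same spread. The p-values of Herpud1 between numbers are therefore descriptions only. In edgeR 233 of 7667 genes (3.04%) differed between the 4 numbers at an adjusted p under 0.05, and 0 of the 7 tested genes did, with Herpud1 and Hsp90b1 at an unadjusted p of 0.0132 and 0.0189. Relative to its mean over 8 libraries, Herpud1 was at -0.30 on the log2 scale in E604/N604 and at 0.18 in E592/N592, with an edgeR adjusted p of 0.219. Its adjusted p was 0.0356 in DESeq2, which called it and no other of the 8 members with an adjusted p, and 439 of 8767 genes (5.01%). Hsp90b1 was at -0.14 in E592/N592 and 0.12 in E606/N606, with an edgeR adjusted p of 0.272, and limma-voom called it alone among the members, with 299 of 7667 genes (3.90%) called. Sdf2l1 was at 0.38 in E604/N604 and -0.28 in E591/N591, with an edgeR adjusted p of 0.537. The E604/N604 pair was thus lowest for Herpud1 and highest for Sdf2l1. Of the 86 tested pathway genes 0 differed between numbers in edgeR, with 7 of 86 at an unadjusted p under 0.05, where 11.2% of tested genes were, and DESeq2 and limma-voom called 2 each. Among cytosolic heat shock genes 4 of 11 differed in edgeR, led by the inducible Hsp70 genes Hspa1a and Hspa1b at adjusted p-values of 2.63e-08 and 1.19e-08, and among immediate-early genes 8 of 19 did. Log2 fold changes between the groups had a median SE of 0.12 and 0.06 in these lists, against 0.30 for all tested genes. The share of all genes is therefore not a like background for them.

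**Figure D5:**
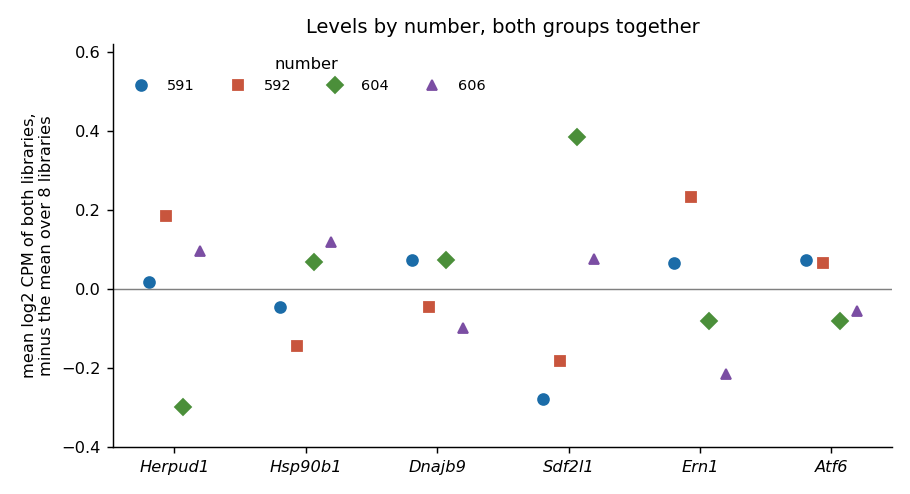
Mean log2 CPM of the EcTM and non-EcTM libraries of each number, minus the mean over 8 libraries, for the 6 best counted genes. The E604/N604 pair is lowest for Herpud1 (-0.30) and highest for Sdf2l1 (0.38), so the genes do not order the numbers alike.

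The genes whose pattern over the 8 libraries was closest to Herpud1 were sought among the 3807 genes whose log2 CPM averaged 5 or more, by the mean absolute difference of log2 CPM centred on each gene's mean. They were Ywhaz at 0.06, Irs2 at 0.07, and Bcl6, Bcl3 and Fam129a at 0.08, 0.09 and 0.09. For scale, Herpud1 itself deviated from its mean by 0.22 on average. Ywhaz encodes a 14-3-3 adaptor, Irs2 an insulin receptor substrate, and Bcl6 and Bcl3 are regulators of transcription. All 5 were higher in EcTM in 4 of 4 pairs, a feature that the likeness to Herpud1 largely fixes. On the same measure Atf6 ranked 584, Hsp90b1 1695, Ern1 1729, Dnajb9 2314, Sdf2l1 2839 and Atf4 3802. Atf4 averaged below 5 and was added to this ranking. The distances were 0.21 for Atf6, 0.27 for Hsp90b1 and for Ern1, 0.31 for Dnajb9, 0.36 for Sdf2l1 and 1.23 for Atf4. A gene with the same level in all libraries would lie at 0.22, so the rank of Atf6 does not show a shared pattern. The ranks also depend on how much each gene varies.

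Other cell types and handling were read from marker lists. Of 17 macrophage markers 16 were tested, and their summed level was 32548 to 33596 CPM over EcTM libraries and 30468 to 33060 CPM over non-EcTM libraries, with Itgam, which has 2 curated transcripts, at 0. Of the 16, 12 had a log2 fold change above 0 (median 0.04), and 5 were higher in EcTM in 4 of 4 pairs and 0 lower. Cd14 (0.26 ± 0.06), Mpeg1 (0.28 ± 0.07) and Csf1r (0.10 ± 0.04) had an unadjusted p under 0.05 toward EcTM, none did toward non-EcTM, and 0 passed after adjustment in edgeR. B and plasma cells, the latter rich in this programme, left 1 of 10 markers tested. This was Prdm1, with a log2 fold change of 0.44 ± 0.18, an unadjusted p of 0.0203 in edgeR (adjusted 0.871) and EcTM higher in 3 of 4 pairs. The list had a summed level of 75.4 to 152 CPM (EcTM) and 80.7 to 97.0 CPM (non-EcTM), with Jchain, Mzb1, Cd79b and Irf4 at 0. The summed endothelial markers ran from 52.6 to 347 CPM (EcTM) and from 103 to 949 CPM (non-EcTM) with N591 highest, and Pecam1, Tek and Emcn, each with several transcripts, were at 0. Of 10 endothelial markers 5 were tested, and all 5 had a log2 fold change below 0, with a median of -0.60. Kdr and Ptprb had an unadjusted p under 0.05 toward non-EcTM in edgeR, 0 passed after adjustment, and 0 were lower in 4 of 4 pairs. Neutrophil markers summed to 0 to 0.88 CPM (EcTM) and 2.74 to 5.61 CPM (non-EcTM), 0 of 8 were tested, and S100a9, Ly6g, Elane and Camp were at 0. Mural markers summed to 51.4 to 67.2 CPM (EcTM) and 28.2 to 207 CPM (non-EcTM), with Pdgfrb and Myh11 among 4 of 8 at 0, and the 3 tested were below 0 with a median of -0.51 and no unadjusted p under 0.05. The summed ranges of the fibroblast, cardiomyocyte, T and NK cell and dendritic cell markers overlapped between the groups, the highest was 203 CPM, and none of their tested genes had an unadjusted p under 0.05. Without the pair E591/N591 the log2 fold change of Herpud1 was 0.38, with an adjusted p of 0.909 in edgeR and 0.0713 in DESeq2. Immediate-early genes can respond to the handling of tissue. Of 22 listed, 19 were tested, 6 had an unadjusted p under 0.05 toward EcTM and 0 toward non-EcTM, where 2.77% and 2.63% of all genes did. Of the 19, 16 had a log2 fold change above 0 and 3 below. In 4 of 4 pairs 6 were higher in EcTM and 0 lower, where 7.24% and 6.89% of all tested genes were. Their median log2 fold change was 0.09, their summed level was 57133 to 71830 CPM (EcTM) and 53906 to 66809 CPM (non-EcTM), Jund was at 0, and 0 passed after adjustment in edgeR. The median SE was 0.06 in this list and 0.07 in the macrophage markers, against 0.30 for all tested genes. Smaller changes can thus reach such a p in these lists, and the shares of all genes are not a like background. The part of these marker and handling genes in the differences of Herpud1 and Ddit3 was not tested.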

How the data were processed

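Total RNA of sorted cells was sequenced from stranded libraries made with a SMARTer pico-input kit, per the labels' protocols. Per the submitters' processing notes, bcl2fastq 2.17, TopHat, DESeq2 and R 3.2 were used with mm10. Counter, annotation and use of strand were not given in the sources used here. Raw counts are what the authors deposited: counts per gene, for 24516 genes. They also deposited log2 values under headers that read CPM, and these were not used. Of the genes, 10197 (41.6%) were at 0 in all 8 libraries. RefSeq entries of GRCm38.p6 were matched by Entrez number for 24447 genes.

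Groups came from the sample titles. The numbers in the titles were used as a replicate block in all main results. The deviations of same-numbered libraries from their group means correlated with each other across genes at 0.12 to 0.19, and those of others at -0.13 to 0.05. Genes are not independent replicates. Genes passing filterByExpr (7667) were fitted in edgeR 4.0.16 (R 4.3.3) with TMM factors, quasi-likelihood F-tests and Benjamini-Hochberg adjustment at 0.05. The biological coefficient of variation was 0.304, and log2 fold changes had a median SE of 0.30. DESeq2 1.42.0, with its independent filtering at the default of 0.1, and limma-voom (limma 3.58.1) were run beside it, and the fits were tested on simulated counts. Log2 CPM use a prior count of 2. Alternatives were other scalings, filters, dispersions and tools, genes with 1 curated transcript, no block, and leaving out each number. Named genes are the 10 members, up to 4 per list with the smallest p of the group comparison (up to 2 for the numbers), and the 5 genes closest to Herpud1. Of the genes with the smallest p for the numbers, Hyou1, Mbtps2, Rtcb, Kdelr2 and Sec62 were not called in edgeR and are not described further. Members and lists were chosen with earlier results of these data known. Plots used matplotlib 3.10.9 (Python 3.11.15).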

Additional observations from a re-analysis of the deposited data

Results flagged for a closer look

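In groups of 4 libraries, single libraries stood far from the other 3 in 7 of 80 groups checked. Chance alone marks about 1 in 20 where genes are not picked by their values. Most genes checked here were picked by their values in these libraries, so that rate is not a like background. Ywhaz and Fam129a were picked for likeness to Herpud1, itself the lowest of its group in N604. Xbp1, at 0 throughout, could not be marked. Ddit3 in E604 was at 2.19 CPM (5 counts), with the other EcTM libraries at 0. Where the other 3 are at 0, any count is marked, so the rate of 1 in 20 does not hold for this group. Sdf2l1 in N604 was at 105 CPM, with the others between 63.1 and 66.0 CPM. Nupr1 in E592 was at 62.6 CPM, with the others between 26.5 and 30.0 CPM. Ssr3 in N604 was at 294 CPM, with the others between 246 and 251 CPM. Kdelr2 in N591 was at 151 CPM, with the others between 84.8 and 89.2 CPM. Ywhaz in N604 was at 68.0 CPM, below the others at 87.1 to 89.8 CPM. Fam129a in N604 was at 424 CPM, below the others at 498 to 512 CPM.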

How the results depend on the processing

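Without the replicate block, edgeR called 0 genes and 0 members, and Herpud1 had a log2 fold change of 0.38 with an adjusted p of 0.998. DESeq2 without the block called 0 genes. With the block, the count of genes called between groups (1 in edgeR) was 10 with no filter on low counts, 0 with robust dispersions, 0 among genes with 1 curated transcript (which leaves out Herpud1), 17 in DESeq2, 26 in DESeq2 with its filtering set for 0.05 and 19 in limma-voom. It was 1 to 2 when each number was left out in edgeR, and in DESeq2 it was 2 without E591/N591, 6 without E592/N592, 20 without E604/N604 and 4 without E606/N606. Members called were 1 (Herpud1) in both DESeq2 settings, and 0 to 1 in DESeq2 when each number was left out. Herpud1 kept its direction in 18 of 18 alternatives, with log2 fold changes of 0.36 to 0.41 and an adjusted p from 0.00956 to 1. All of them reuse libraries in which Herpud1 was higher in EcTM in every pair. A turn of direction was therefore hardly possible, and this count is not support. The log2 fold change of Herpud1 was 0.38 in both DESeq2 settings. Without each number it was 0.36 to 0.40 in edgeR and 0.36 to 0.41 in DESeq2, where Herpud1 passed without the E604/N604 pair. For the count of genes that differ between numbers (233), no filter gave 350, DESeq2 439 or 442, and leaving out a number 146 to 179. Members called there were 1 in DESeq2 at both filter settings (Herpud1) and 1 in limma-voom (Hsp90b1). Directions of other members turned when a number was left out. In edgeR and DESeq2, Atf4 ran from -1.87 to 0.22 and from -1.90 to 0.20, with 0.10 and 0.0484 without E604/N604. Atf6 ran from -0.0730 to 0.0618 and from -0.0734 to 0.0710, with 0.0200 and 0.0280 without E591/N591. Dnajb9 ran from -0.19 to 0.24 and from -0.18 to 0.25, and Hsp90b1 from -0.0110 to 0.12 and from -0.00149 to 0.12, both lowest without E604/N604. Sdf2l1 ran from -0.0299 to 0.22 and from -0.0251 to 0.23, lowest without E606/N606. Ern1 stayed below 0 in all 19 alternatives. Fewer libraries left fewer residual degrees of freedom, and the cause of the other differences was not tested. DESeq2 without the block, with one number left out or with its filtering at 0.05 was added after the data were seen. The few counts of Hspa5, Atf4 and Ddit3 limit what these libraries show for them.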
